A study of Mus musculus with 6 samples.

Results

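The Slc25 family of mitochondrial solute carriers was compared between megakaryocyte-erythroid progenitors of Fog1ki/ki mice, which carry 2 copies of a Fog1 knock-in allele, and of Fog1+/+ mice, which have 2 intact alleles. Members were all genes whose symbol is Slc25a followed by a number and whose probe set names no other gene. The rule found 45 genes, each with 1 probe set, among the 19661 genes measured.

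Slc25 proteins form a large family of solute transporters and sit mostly in the inner mitochondrial membrane, which is otherwise nearly closed to charged metabolites. They exchange ADP for ATP, bring in phosphate, pyrimidine nucleotides, NAD+, amino acids and iron, and pass citrate and other acids between the matrix and the cytosol. Red cell precursors depend on several of them, since haem synthesis starts with glycine in the matrix and ends there with the insertion of iron.

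The cells were sorted from bone marrow of B6.129 mice by a gate that excluded lineage markers, Sca1 and CD34 and kept Kit-positive cells with low FcγRII/III, and RNA from 3 samples per genotype, called biological replicates, was hybridised to 1 array each. The age of the mice and the number pooled per sample are not given in the labels, and the nature of the knock-in is not described there. FOG1 binds GATA1, the main transcription factor of red cells and platelets, as a cofactor. As is generally known of this model, the mutant protein has lost its contact with the NuRD complex. That contact was not measured here, and the comparison is one between genotypes. Values are on the log2 scale after RMA, which subtracts background, brings the arrays to a common scale and summarises each probe set. The medians of the arrays still differed, as given below. A difference of 1 is a 2-fold change. In cells sorted as a population, fewer cells of a type and less RNA per cell cannot be told apart.

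The array medians lay between 6.02 and 6.15. All 9 measured markers of megakaryocyte-erythroid progenitors lay above the lower quartiles of the arrays (4.81 to 4.92). Their mean level was 9.17 to 9.33 in Fog1ki/ki and 9.27 to 9.31 in Fog1+/+. None of these 9 passed at a limma adjusted p under 0.05, but they did not all move alike. Kit and Gata1 were lower in every Fog1ki/ki array (log2 differences -0.38 and -0.29), and Itga2b was higher in every one (0.31). Genotypes thus did not overlap in 33.3% of these markers, against 14.8% of all genes. The 4 basophil and eosinophil markers had a mean level of 5.81 to 6.08 in Fog1ki/ki and 5.37 to 5.50 in Fog1+/+. None of these 4 passed. Mcpt8 and Prg2 differed by 1.03 and 0.83 without overlap, and Prss34 and Epx by 0.13 and -0.04 with overlap. Mcpt8 measured 7.40 in Fog1ki/ki replicate 1 and 5.50 and 5.44 in replicates 2 and 3. The 8 mast cell markers had a mean level of 6.02 to 6.59 in Fog1ki/ki and 5.46 to 5.53 in Fog1+/+. Of the 8 mast cell markers 1 rose (12.5%, against 0.773% of all genes), Ms4a2 (log2 difference 3.79), and 7 did not pass. Among these 7, Fcer1a differed by 1.91 without overlap, Hdc and Tpsb2 by 0.06 and 0.07, and Kit, which is also on the progenitor list, by -0.38. Differences were positive in 7 of the mast cell markers and negative in 1. Cpa3 and Mcpt4 were dimmer than every lower quartile. The mean levels of the neutrophil, monocyte, lymphoid and later erythroblast markers overlapped between genotypes. Replicate 3 of each genotype had low Eif2s3y and Uty, which are Y-linked, and high Xist (11.02 in Fog1+/+ and 11.03 in Fog1ki/ki). Replicate 1 had high Eif2s3y and low Xist (5.90 in Fog1+/+ and 5.78 in Fog1ki/ki), and Fog1ki/ki replicate 2 had high Xist (9.13) beside high Eif2s3y (9.44).

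Of the 45 carriers, 1 fell in Fog1ki/ki, 0 rose and 44 did not pass at a limma adjusted p under 0.05. Over all genes tested 0.773% were called, 0.376% as higher and 0.397% as lower. The carrier that fell was Slc25a4. An unadjusted limma p under 0.05 was reached by 10 of 45 carriers (22.2%), 4 of them higher and 6 lower, against 9.57% of all genes (4.99% higher, 4.58% lower). Genotypes did not overlap in 3 members that were higher and 8 that were lower (24.4%), against 14.8% of all genes, of which 8.31% were higher and 6.53% lower. Only 2 members, Slc25a31 and Slc25a54, were dimmer than every array's lower quartile, as were 4024 of the 19661 genes, and with such dim genes left out these shares were 23.3% of 43 members against 10.8%, and 25.6% against 16.0%. No statement about the family as a whole follows from these shares, because the members were not tested as a set. Differences were positive in 22 members, negative in 22 and 0 in 1 (Slc25a17), with a median of 0.00 against 0.02 over all genes. Of the 19661 genes, 11062 had a positive difference, 8416 a negative one and 183 one of 0. No member differed by as much as 2-fold.

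The count of called genes over all genes, 152, was 60, 83 and 60 without Fog1+/+ replicate 1, 2 and 3 and 82 without Fog1ki/ki replicate 2. Among the carriers, 0 were called in limma without Fog1+/+ replicate 1, Fog1+/+ replicate 3 or Fog1ki/ki replicate 3, and 2 without Fog1ki/ki replicate 1.

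**Figure D1:**
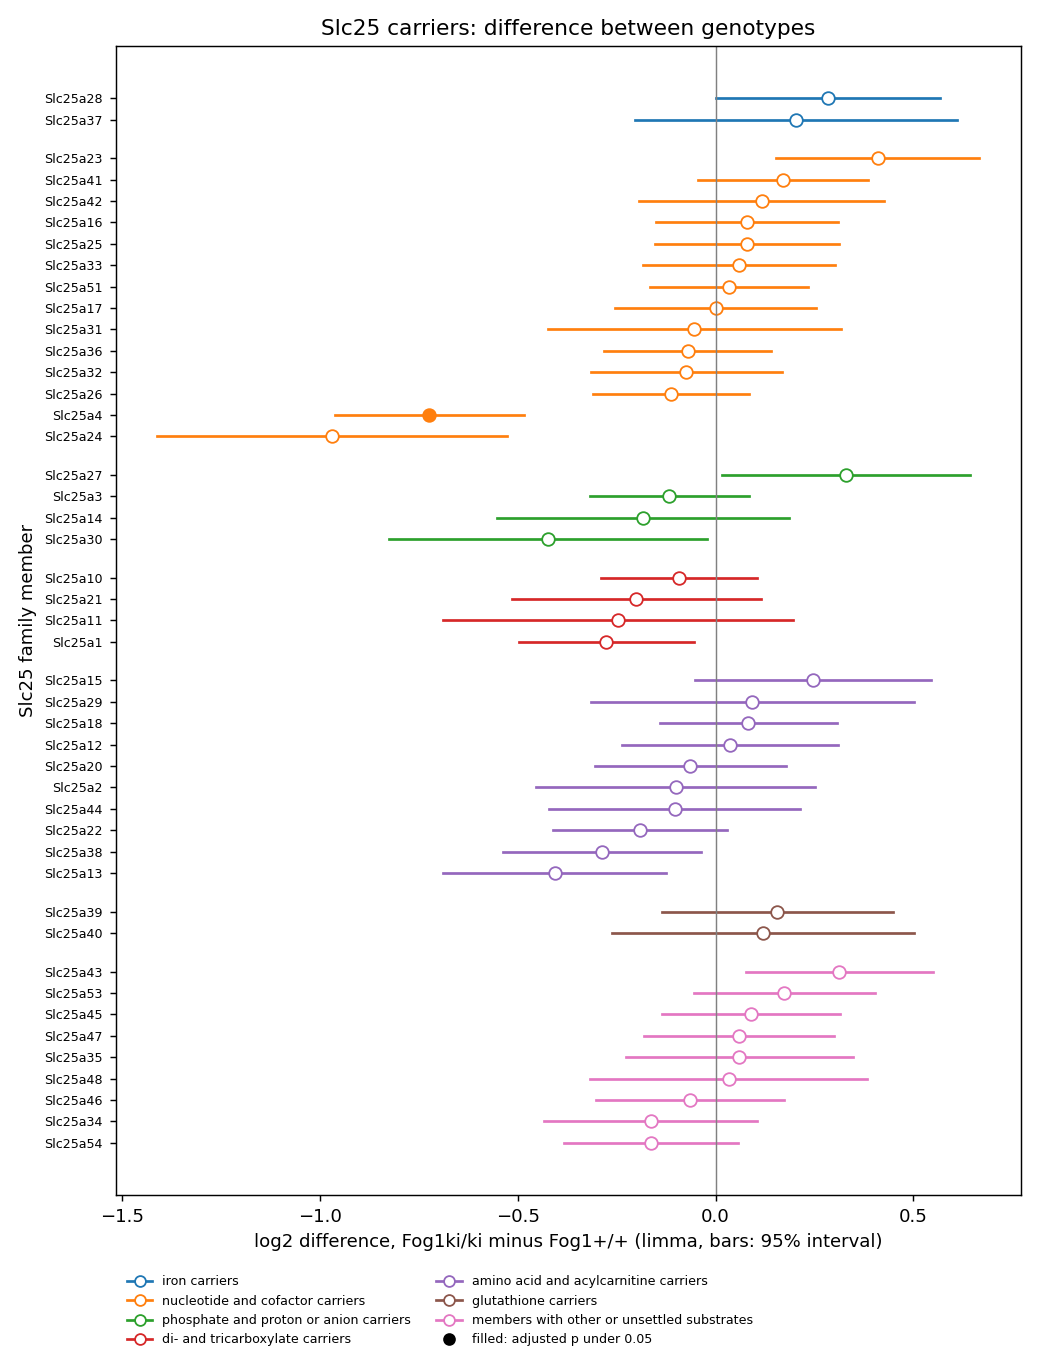
Log2 difference, Fog1ki/ki minus Fog1+/+, of each of the 45 Slc25 members (points) with its 95% interval from limma (bars), ordered by role group. Slc25a4, at -0.72, is the filled point, and Slc25a24, at -0.97, lies farther from 0 with a wider interval.

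Among the nucleotide and cofactor carriers, 14 genes were measured, of which 1 fell, 0 rose and 13 did not pass. That is 7.14% called, against 0.773% of all genes, and the group was not tested as a set. The group had 7 positive differences, 6 negative and 1 of 0, with a median of 0.02. Slc25a5, the ADP/ATP carrier of dividing cells, was not analysed here.

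Slc25a4 encodes the ADP/ATP carrier best known from heart and skeletal muscle, which sends ATP out of the matrix in exchange for ADP. Its probe set (10578539, Entrez gene 11739) measured 9.92, 10.04 and 9.75 in Fog1ki/ki replicates 1 to 3, against 10.67, 10.53 and 10.68 in Fog1+/+ replicates 1 to 3. Every Fog1ki/ki array lay below every Fog1+/+ array, and the gap between the groups was wider than the range within either. The level was 9.90 ± 0.15 in Fog1ki/ki and 10.63 ± 0.08 in Fog1+/+ (SD, n = 3 each), a log2 difference of -0.72 (95% interval -0.96 to -0.49, limma adjusted p = 0.0188), or 1.65-fold lower in Fog1ki/ki. The call was lost without Fog1ki/ki replicate 3 (limma adjusted p = 0.0554), without Fog1+/+ replicate 1 (0.104) and without Fog1+/+ replicate 3 (0.117), with differences of -0.65, -0.70 and -0.70. It was also lost with the replicate number as a block (-0.72, limma adjusted p = 0.0501). With a term for the arrays with low Y-linked values the call held, and without both of those arrays the difference was -0.62 (limma adjusted p = 0.274, 2 arrays per genotype).

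The mean level of the mast cell markers, given above, was higher in all Fog1ki/ki arrays, in which Slc25a4 was lower, and its part in the Slc25a4 value was not tested. Slc25a4 lies on chromosome 8, as does Zfpm1, the gene that encodes FOG1, with 586 tested genes between them. On that chromosome 1.28% of 941 tested genes were called, against 0.773% of all genes. Of the 20 nearest tested genes, 10 on each side, 0 fell in limma and none had an unadjusted p under 0.05 with a negative difference. Among these neighbours Trappc11 rose (log2 difference 0.62, limma adjusted p = 0.0440), and the others lay between -0.17 and 0.30. A contribution of DNA inherited with the knock-in allele was not tested.

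The window from 250 bases before to 50 bases after the RefSeq start of Slc25a4 (GRCm38.p6, chr8:46211013-46211312, minus strand) is shown because it is the carrier that passed the test. Capitals mark matches, on either strand, to a GATA hexamer (GATA with A or T before it and A or G after it) and to the ETS-type motif CCGGAAG, which do not overlap each other here.
Slc25a4: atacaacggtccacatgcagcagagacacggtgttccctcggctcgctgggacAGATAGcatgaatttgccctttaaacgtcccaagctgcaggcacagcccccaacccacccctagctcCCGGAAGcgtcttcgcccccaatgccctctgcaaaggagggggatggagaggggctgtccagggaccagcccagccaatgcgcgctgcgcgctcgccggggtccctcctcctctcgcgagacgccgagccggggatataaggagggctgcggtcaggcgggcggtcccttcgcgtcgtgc
The window holds AGATAG 197 bases before the start and CCGGAAG 130 bases before it. A GATA hexamer occurs in a window of 8 of the 35 members with an entry in the table (22.9%), against 33% of all its genes, and CCGGAAG in 7 of 35 (20.0%), against 9.93%. The E-box CACGTG occurs in 7 of 35 (20.0%, against 8.09% of all genes). These matches are descriptions of letters, and no binding was measured.

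Slc25a24 is a calcium-regulated carrier that exchanges ATP-Mg for phosphate and so sets the adenine nucleotide pool of the matrix. It is described here because its difference was the largest in the family, a choice made after the values were seen. The probe set measured 5.91, 5.22 and 5.37 in Fog1ki/ki replicates 1 to 3, against 6.21, 6.44 and 6.76 in Fog1+/+ replicates 1 to 3. The genotypes did not overlap, but the spread within each was wide, and Fog1ki/ki replicate 1 lay 0.30 below the lowest Fog1+/+ array. The log2 difference was -0.97 (SE 0.20, 95% interval -1.41 to -0.53), at a limma adjusted p of 0.0791, which did not pass. It passed without Fog1ki/ki replicate 1 (log2 difference -1.18, limma adjusted p = 0.0236) and with arrays weighted by their quality (-1.10, adjusted p = 0.0284).
The RefSeq window of Slc25a24 (GRCm38.p6, chr3:109122899-109123198, plus strand) is given beside that of Slc25a4 as the other large difference of the group, and it holds neither of the marked motifs.
Slc25a24: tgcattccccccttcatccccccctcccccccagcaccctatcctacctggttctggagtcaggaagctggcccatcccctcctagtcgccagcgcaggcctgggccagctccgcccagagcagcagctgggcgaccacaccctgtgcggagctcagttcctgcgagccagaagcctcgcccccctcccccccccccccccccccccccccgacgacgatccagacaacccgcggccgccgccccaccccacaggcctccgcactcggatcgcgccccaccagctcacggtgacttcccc

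Slc25a23, another calcium-regulated ATP-Mg and phosphate carrier, had the opposite sign. It measured 5.94, 6.08 and 6.33 in Fog1ki/ki replicates 1 to 3, against 5.67, 5.74 and 5.71 in Fog1+/+ replicates 1 to 3. The Fog1+/+ arrays lay close together and below all Fog1ki/ki arrays. Slc25a23 did not pass (log2 difference 0.41, SE 0.11, limma adjusted p = 0.223), and a difference between Slc25a23 and Slc25a24 was not tested. The remaining ATP-Mg carriers, Slc25a25 and Slc25a41, had differences of 0.08 and 0.17 and did not pass either.

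The other nucleotide and cofactor carriers had differences between -0.11 and 0.12. Slc25a51, which brings NAD+ into the matrix, was nearly level across the arrays at 9.85, 9.74 and 9.82 in Fog1ki/ki and 9.71, 9.78 and 9.82 in Fog1+/+ (log2 difference 0.03, 95% interval -0.17 to 0.23). Its sign turned with each array centred on its median (-0.01). Slc25a36, a pyrimidine nucleotide carrier, had a log2 difference of -0.07 (95% interval -0.28 to 0.14), and that sign turned with quantile normalization repeated (0.00278). Slc25a31, the ADP/ATP carrier of the testis, was dim in both genotypes, with means of 4.38 in Fog1ki/ki and 4.44 in Fog1+/+. Slc25a26, which imports S-adenosylmethionine, Slc25a32, a folate and FAD carrier, Slc25a42, a coenzyme A carrier, and Slc25a17 of peroxisomes were among those that did not pass.

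**Figure D2:**
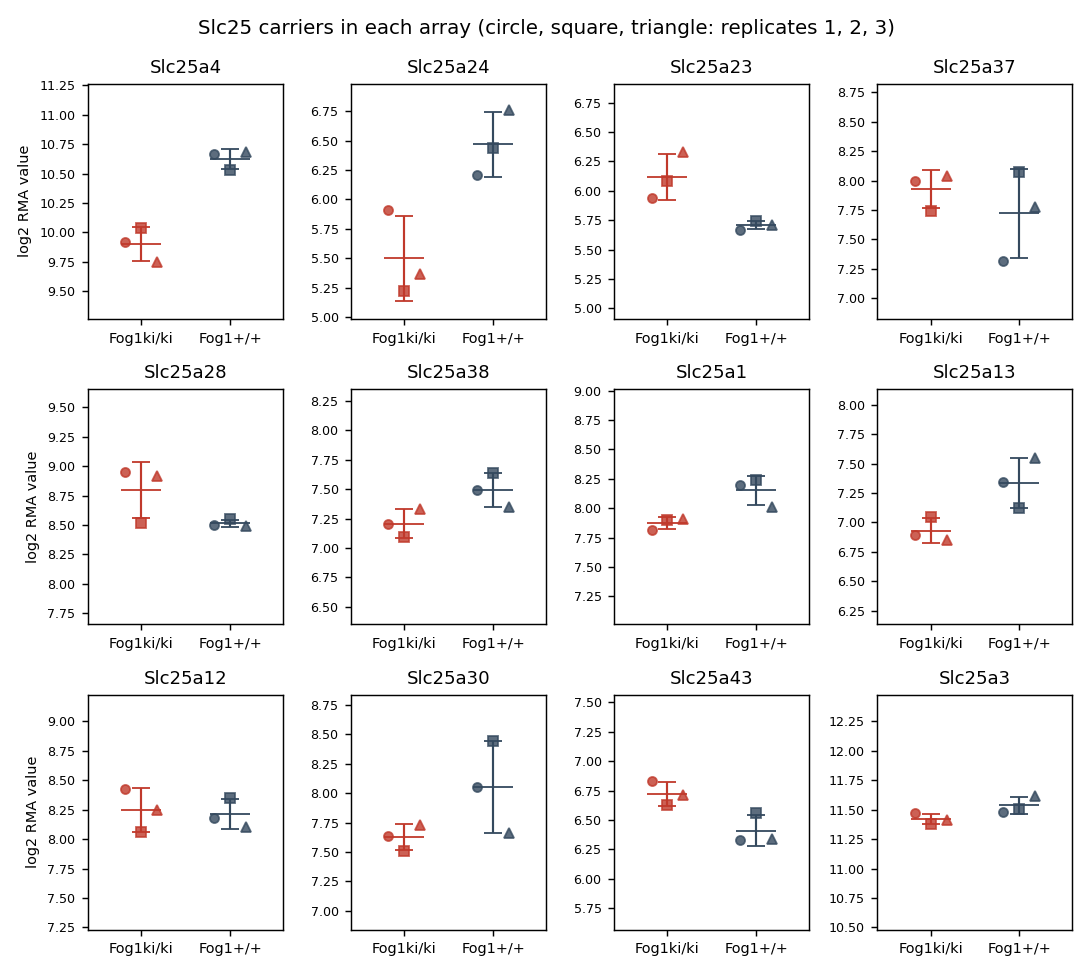
Log2 RMA value of 12 Slc25 members in each array, Fog1ki/ki (red) left of Fog1+/+ (dark), with the mean (long dash) and SD (bar) of each genotype. Each panel spans 2 log2 units. The 12 are a selection and do not represent the family. Genotypes did not overlap in 11 of all 45 members (24.4%), against 14.8% of all genes. Fog1ki/ki and Fog1+/+ do not overlap in Slc25a4, Slc25a24, Slc25a23, Slc25a38, Slc25a1, Slc25a13, Slc25a43 and Slc25a3, and overlap in Slc25a37, Slc25a28, Slc25a12 and Slc25a30.

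Neither of the iron carriers passed. Slc25a37 encodes mitoferrin 1, which imports the iron for haem in developing red cells. It measured 8.0, 7.74 and 8.04 in Fog1ki/ki replicates 1 to 3, against 7.32, 8.07 and 7.78 in Fog1+/+ replicates 1 to 3. The genotypes overlapped, and Fog1+/+ replicate 1 lay lowest, so that the difference of 0.20 (SE 0.18, 95% interval -0.20 to 0.61, limma adjusted p = 0.794) was 0.00167 without that array and 0.38 without Fog1+/+ replicate 2. Changes of up to about 0.61 upward or 0.20 downward are inside that interval.

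Slc25a28 encodes mitoferrin 2, the iron importer of most other cells. It measured 8.95, 8.52 and 8.92 in Fog1ki/ki replicates 1 to 3, against 8.50, 8.55 and 8.49 in Fog1+/+ replicates 1 to 3. Fog1ki/ki replicates 1 and 3 lay above all Fog1+/+ arrays and replicate 2 among them. The log2 difference was 0.28 (SE 0.12, 95% interval 7.62e-05 to 0.57, limma adjusted p = 0.522). Its unadjusted limma p was 0.04995, just under 0.05. Without Fog1ki/ki replicate 2 the difference was 0.42 (limma adjusted p = 0.179).

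Slc25a38, placed with the amino acid carriers, imports the glycine that starts haem synthesis, and its loss in humans causes congenital sideroblastic anaemia. It measured 7.20, 7.09 and 7.33 in Fog1ki/ki replicates 1 to 3, against 7.49, 7.64 and 7.35 in Fog1+/+ replicates 1 to 3. No array of one genotype reached the other, with a gap of 0.02 between Fog1ki/ki replicate 3 and Fog1+/+ replicate 3. Slc25a38 did not pass (log2 difference -0.29, SE 0.11, 95% interval -0.54 to -0.04, limma adjusted p = 0.435).
The windows of the iron carrier Slc25a28 and the glycine carrier Slc25a38 are shown with the same marks because both solutes enter haem synthesis, and Slc25a37 has no entry in the table. That of Slc25a28 lies at chr19:43674832-43675131 (minus strand) and that of Slc25a38 lies at chr9:120110132-120110431 (plus strand), both from RefSeq on GRCm38.p6.
Slc25a28: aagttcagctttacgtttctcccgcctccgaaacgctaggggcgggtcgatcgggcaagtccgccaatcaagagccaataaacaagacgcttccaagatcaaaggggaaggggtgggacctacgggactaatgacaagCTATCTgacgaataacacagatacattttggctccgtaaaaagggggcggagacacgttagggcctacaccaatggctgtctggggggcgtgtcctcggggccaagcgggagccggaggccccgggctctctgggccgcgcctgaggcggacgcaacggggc
Slc25a38: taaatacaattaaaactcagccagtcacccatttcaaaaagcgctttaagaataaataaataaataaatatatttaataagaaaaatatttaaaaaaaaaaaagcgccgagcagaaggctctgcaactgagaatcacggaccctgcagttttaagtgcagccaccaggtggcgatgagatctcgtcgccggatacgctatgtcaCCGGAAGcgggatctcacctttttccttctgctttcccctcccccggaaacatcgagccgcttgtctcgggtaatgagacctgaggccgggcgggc
The Slc25a28 window holds CTATCT, the reverse complement of AGATAG, 112 bases before the start, and the Slc25a38 window holds CCGGAAG 46 bases before it.

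Of the 10 amino acid and acylcarnitine carriers, 0 passed in limma. Slc25a13 and Slc25a38, both lower, were the 2 with an unadjusted p under 0.05 (20%, against 9.57% of all genes), and 0 that were higher reached it. Slc25a13, the aspartate-glutamate carrier known from liver, feeds the malate-aspartate shuttle that moves reducing equivalents into the matrix. It measured 6.89, 7.05 and 6.85 in Fog1ki/ki replicates 1 to 3, against 7.34, 7.12 and 7.55 in Fog1+/+ replicates 1 to 3, with no overlap. The log2 difference was -0.41 (SE 0.12, 95% interval -0.69 to -0.13, limma adjusted p = 0.292). Its paralogue Slc25a12, known from muscle and brain and named here for comparison, averaged 8.25 ± 0.19 in Fog1ki/ki and 8.21 ± 0.13 in Fog1+/+ (SD, n = 3 each), and its difference of 0.04 had a 95% interval of -0.24 to 0.31. Its sign turned with each array centred on its median, with array weights, without the low-Y arrays and without Fog1ki/ki replicate 1 or Fog1+/+ replicate 3. The ornithine carrier of the urea cycle, Slc25a15, differed by 0.25 (SE 0.13, limma adjusted p = 0.618), with 7.67 in Fog1ki/ki replicate 3 and 7.18 and 7.28 in replicates 1 and 2, and by 0.10 without replicate 3. The remaining members, among them the carnitine-acylcarnitine carrier Slc25a20 and the glutamate carriers Slc25a18 and Slc25a22, had differences between -0.19 and 0.09.

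All 4 di- and tricarboxylate carriers had negative differences, from -0.28 to -0.09 with a median of -0.22, and 0 passed in limma. Over all genes 8416 of 19661 differences were negative, and this group was not tested as a set. Slc25a1, which exports citrate for fatty acid and sterol synthesis, measured 7.81, 7.90 and 7.91 in Fog1ki/ki replicates 1 to 3, against 8.20, 8.24 and 8.01 in Fog1+/+ replicates 1 to 3. The genotypes did not overlap, and the log2 difference was -0.28 (SE 0.10, 95% interval -0.50 to -0.06, limma adjusted p = 0.369). It was the only member of the group with an unadjusted limma p under 0.05 (0.0198), or 25% of the group against 9.57% of all genes. The oxoglutarate-malate carrier Slc25a11 had the widest range of any carrier among the Fog1ki/ki arrays, 0.81, and a difference of -0.25. The dicarboxylate carrier Slc25a10 and the oxodicarboxylate carrier Slc25a21 had differences of -0.09 and -0.20.

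Of the 4 phosphate, proton and anion carriers, 0 passed in limma. An unadjusted p under 0.05 was found for 1 that was higher (Slc25a27) and 1 that was lower (Slc25a30), or 50% against 9.57% of all genes. Slc25a3, which supplies the phosphate for ATP synthesis, averaged 11.42 ± 0.05 in Fog1ki/ki and 11.54 ± 0.07 in Fog1+/+ (SD, n = 3 each). Its difference of -0.12 had a 95% interval of -0.32 to 0.09 and did not pass, although the genotypes did not overlap, and it was -0.075 without Fog1+/+ replicate 3. Slc25a27, a relative of the uncoupling proteins known from brain, differed by 0.33 (SE 0.14, limma adjusted p = 0.492), and by 0.19 without Fog1+/+ replicate 2. Slc25a30, another such relative, measured 7.64, 7.51 and 7.73 in Fog1ki/ki replicates 1 to 3, against 8.05, 8.44 and 7.66 in Fog1+/+ replicates 1 to 3. Its Fog1+/+ arrays had the widest range of any carrier, 0.78, and Fog1+/+ replicate 3 lay among the Fog1ki/ki arrays. The difference was -0.42 (SE 0.18, limma adjusted p = 0.493), and it was -0.23 without Fog1+/+ replicate 2. Slc25a14 had a difference of -0.18, with 6.63 in Fog1ki/ki replicate 3 and 7.32 and 7.14 in replicates 1 and 2.

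The glutathione carriers Slc25a39 and Slc25a40 had differences of 0.16 (SE 0.13) and 0.12 (SE 0.17), and neither passed (limma adjusted p = 0.772 and 0.883). Removing single arrays put the difference of Slc25a39 between 0.075 (without Fog1+/+ replicate 2) and 0.26 (without Fog1ki/ki replicate 2), and that of Slc25a40 between -0.06 (without Fog1ki/ki replicate 1) and 0.29 (without Fog1ki/ki replicate 3). Of the 9 members with other or unsettled substrates, 0 passed in limma. Of these 9, 1 that was higher had an unadjusted p under 0.05 (11.1%, against 9.57% of all genes) and 0 that were lower did. That member was Slc25a43, which measured 6.83, 6.63 and 6.71 in Fog1ki/ki replicates 1 to 3, against 6.33, 6.56 and 6.34 in Fog1+/+ replicates 1 to 3. The genotypes did not overlap (log2 difference 0.31, SE 0.10, limma adjusted p = 0.335). Slc25a43, Slc25a14 and Slc25a53 are the X-linked members, and 0 of these 3 passed in limma. Slc25a54, dim in both genotypes, had a difference of -0.16 (-0.11 without Fog1ki/ki replicate 3), and the others lay between -0.16 and 0.17.

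Spread within a genotype was alike on both sides, with a median SD over the 45 members of 0.128 in Fog1ki/ki and 0.128 in Fog1+/+. A range of at least 0.5 was found for 6 members in Fog1ki/ki and 5 in Fog1+/+, and Slc25a24 was in both sets. The difference exceeded the range within each genotype for 5 members, namely Slc25a4, Slc25a24 and Slc25a1, which were lower in Fog1ki/ki, and Slc25a23 and Slc25a43, which were higher. The share of all genes that meet this criterion was not computed, so the count describes these members and says nothing about the family.

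Carriers act together with other proteins of mitochondrial iron and haem handling, of which 20 of 23 listed genes were measured. Of these, 1 fell, 0 rose and 19 did not pass (5% called, against 0.773% of all genes), and the list was not tested as a set. Tmem14c, which is needed in mouse erythroid cells to bring the haem precursor protoporphyrinogen into the matrix, measured 10.33, 10.29 and 10.41 in Fog1ki/ki replicates 1 to 3, against 10.75, 10.95 and 10.95 in Fog1+/+ replicates 1 to 3. The genotypes did not overlap, and the level was 1.45-fold lower in Fog1ki/ki (log2 difference -0.54, SE 0.10, limma adjusted p = 0.0469). In 11 of 16 alternative settings Tmem14c was not called, and it failed to pass whichever array was removed (limma adjusted p 0.0875 to 0.236), although its difference stayed between -0.61 and -0.46. The iron-sulphur assembly factor Isca2, named after its values were seen, missed the threshold with a difference of -0.49 (SE 0.10, limma adjusted p = 0.0876). The list held 7 positive and 13 negative differences. Ppox, which oxidises protoporphyrinogen and is also named after its values were seen, had the opposite sign to Tmem14c. It measured 8.10, 7.78 and 7.82 in Fog1ki/ki replicates 1 to 3, against 7.43, 7.75 and 7.64 in Fog1+/+ replicates 1 to 3. The genotypes did not overlap, with a log2 difference of 0.29 (SE 0.12) that did not pass (limma adjusted p = 0.496). Tmem14c, Isca2 and Ppox were the 3 genes of the list with an unadjusted p under 0.05 (15%, against 9.57% of all genes). Fech, which inserts iron into haem, and Alas2, the erythroid enzyme of the first step, are named for their roles, a choice made after the values were seen, and did not pass (log2 differences -0.23 and -0.04, limma adjusted p = 0.636 and 0.950). Without Fog1+/+ replicate 2 the difference of Fech was -0.13.

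In the other lists no gene passed, with 0 of 16 other solute routes of the mitochondrial membranes, 0 of 8 genes of the carrier import machinery and 0 of 11 mitochondrial biogenesis regulators called in limma. An unadjusted p under 0.05 was reached by 3 solute route genes (1 higher, 2 lower), or 18.8% against 9.57% of all genes. In the import and biogenesis lists 0 genes reached it. The smallest p of each list belonged to Micu2, a regulator of the mitochondrial calcium uniporter (log2 difference -0.46, limma adjusted p = 0.203), Tomm40, the outer membrane import channel (-0.19, adjusted p = 0.578, and -0.13 without Fog1+/+ replicate 1), and Pprc1, a coactivator of mitochondrial gene expression (-0.23, adjusted p = 0.642, and -0.11 without Fog1ki/ki replicate 3). Of the 8 import genes, 7 had a negative difference, as did 8416 of all 19661 genes, with a list median of -0.16 against 0.02 over all genes. None of the 8 was dimmer than every lower quartile. Among all genes with that property 7148 of 15637 differences were negative, with a median of 0.01. This is a description with no test, and a part of brightness or array scaling in it was not tested. The medians of the haem, solute route and biogenesis lists were -0.06, -0.08 and 0.02.

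**Figure D3:**
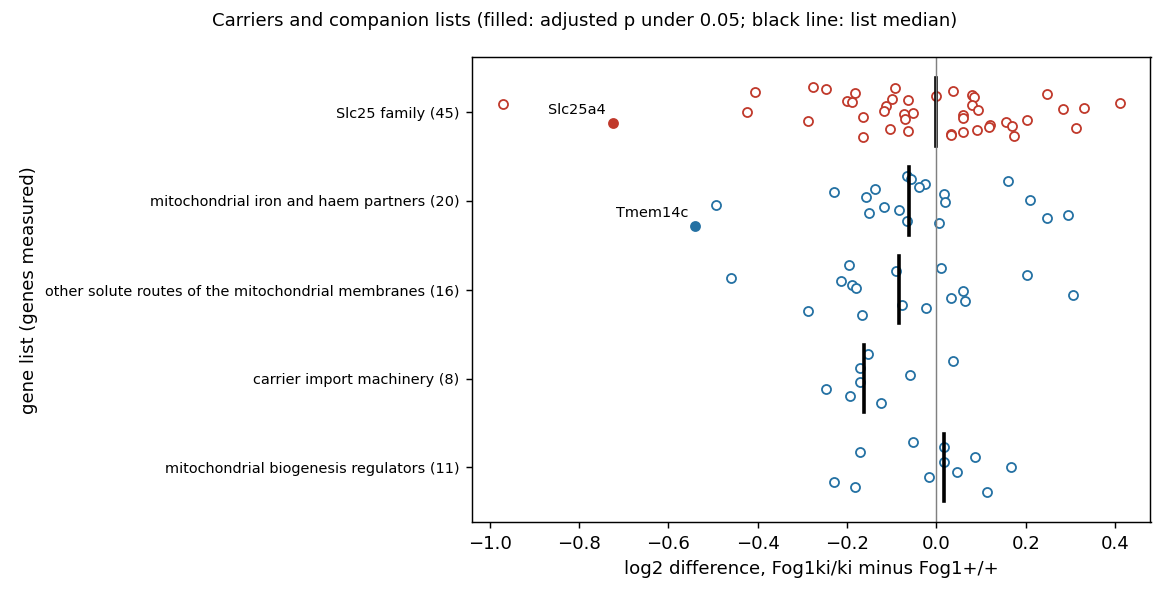
Log2 difference, Fog1ki/ki minus Fog1+/+, of each gene of the Slc25 family and of 4 companion lists (points), with the list median as a black line. Slc25a4 and Tmem14c, the filled points, are the genes called in these lists.

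**Figure D4:**
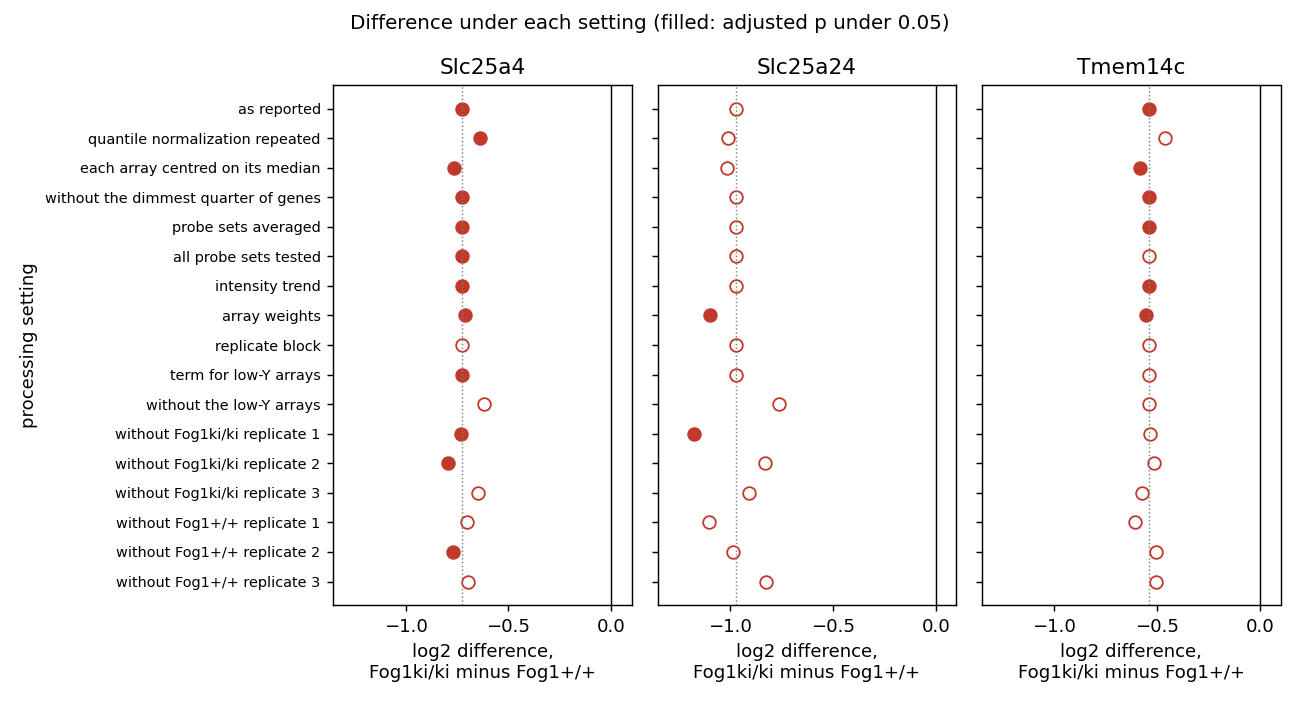
Log2 difference, Fog1ki/ki minus Fog1+/+, of Slc25a4, Slc25a24 and Tmem14c as reported and under 16 alternative settings, with filled points where the limma adjusted p was under 0.05. Slc25a4 was called in 11 of the 16 settings, Slc25a24 in 2 and Tmem14c in 5, and all values are below 0.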

How the data were processed

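The deposited values are log2 probe set values with 2 decimals from 6 one-colour arrays of amplified RNA. The submitters' processing notes name RMA, without software, version or settings in the sources used here, and the range of the values shows the log2 scale. The number of arrays limits the precision. The labels do not say whether all replicates came from separate animals, so p-values measure the spread between these samples. By their Y-linked and Xist values, replicates 1 and 3 of a genotype did not come from the same animals.

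Of 25668 probe sets, 20777 name 1 gene in the platform annotation, which can be old, 232 several and 4659 none. For 564 genes the brightest of several probe sets was kept, giving 19661 genes with no filter. The 45 members matched RefSeq (GRCm38.p6) by Entrez identifier, and 0 symbols differed. Promoter windows are RefSeq's. Levels were compared between arrays within a probe set, and across genes they served only to pick the brightest members and mark dim ones.

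The genotype difference was fitted over all genes in R 4.3.3 with limma 3.58.1 (lmFit and eBayes, two-sided tests, no covariates), and a Benjamini-Hochberg adjusted p under 0.05 was a call. With 3 arrays per genotype the smallest exact permutation p is 0.1, so single genes were tested in limma alone. On simulated data of 19661 genes limma recovered 11 of 50 given a log2 change of 0.5, 39 of 50 given 1, 47 of 50 given 1.5 and 50 of 50 given 2. It called 6 of 19461 unchanged ones. These counts hold for the simulated data and are not recovery rates for the carriers.

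The members and lists were chosen with earlier results of these data known. Named genes are Slc25a37, Slc25a28, Slc25a38, every called member, the member with the smallest p in each direction of each role group, the 4 brightest members, and per companion list the called genes or else that with the smallest p. All other genes given by name were chosen after their values were seen. Alternatives were other between-array scalings, gene filters, probe set rules, variance models, covariates, thresholds and leaving out each array. Figures were drawn with matplotlib 3.10.9 in Python 3.11.15.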

Additional observations from a re-analysis of the deposited data

How the results depend on the processing

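Slc25a4 kept its direction in all 16 alternative settings (log2 difference -0.79 to -0.62) and its call in 11. The call was lost with the replicate number as a block (-0.72, limma adjusted p = 0.0501) and without the 2 arrays with low Y-linked values (-0.62, adjusted p = 0.274). With each array left out in turn its difference ran from -0.79 to -0.65 and the call was lost in 3 of 6 cases. The replicate numbers were not taken to pair the arrays: deviations of same-numbered arrays correlated at 0.07, -0.01 and 0.13 across genes, against -0.13 to 0.06 for other-numbered ones. The highest value belonged to the replicate 3 arrays, both with low Y-linked values. The number of members called lower, 1 as reported, was 0 with the replicate block and without the low-Y arrays, 2 with array weights and 2 at an adjusted p under 0.1, and ran from 0 to 2 with each array left out. No setting called a member higher. Called genes of the companion lists, 1 as reported, numbered 0 with quantile normalization repeated, with all probe sets tested, with the replicate block, with a term for low-Y arrays and without those arrays, 2 at an adjusted p under 0.1, and 0 whichever array was left out. Over all genes 24 were called without the low-Y arrays, with 2 arrays left per genotype, and 60 to 134 with each array left out. The family median stayed between -0.07 and 0.04. Of the 45 differences, 2 turned sign with quantile normalization repeated, 3 with arrays centred, 1 with array weights, 6 without the low-Y arrays and 1 to 8 with each array left out, the 8 without Fog1ki/ki replicate 3. Among the genes recomputed by name these were Slc25a36 at 0.00278 with quantile normalization repeated, Slc25a51 at -0.01 and Slc25a12 at -0.00667 with arrays centred, Slc25a12 at -0.0105 with array weights and -0.02 without the low-Y arrays. With each array left out, differences ran from -0.055 to 0.13 for Slc25a12, -0.0567 to 0.29 for Slc25a40, -0.18 to 0.13 for Slc25a31 and -0.13 to 0.0567 for Alas2. The causes of the lost calls were not tested, and with the replicate block the call of Slc25a4 was lost although every array was kept. No detection values were used, so dim members are limited by background.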
